A study of Homo sapiens with 12 samples.

Results

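The genes of glycolysis and of the response to low oxygen were followed across 4 kinds of ARPE-19 cells, which are a human retinal pigment epithelium line. The 40 genes were taken by symbol from the gene names of the count table, which has 40591 named lines, and each matched a line. They comprise 16 glycolytic enzymes, 6 genes of glucose and lactate transport or of the control of glycolytic flux, 16 other targets of the hypoxia-inducible factors (HIF), and the 2 HIF alpha subunits HIF1A and EPAS1. All 40 passed the filter on low counts, which left 15179 genes, although CA12, EGLN3 and ANGPTL4 stayed below 2 CPM (counts scaled to a common library size) in every library.

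Poly(A) RNA was sequenced from 12 libraries, 3 in each group. WT cells carry no open reading frame named in the labels. The other lines stably expressed an open reading frame (ORF) for 4 days before collection, namely GFP (a fluorescent protein, the ORF control), GSTA4 (a glutathione S-transferase) or OSK (read as the reprogramming factors POU5F1, SOX2 and KLF4). The labels give no promoter for the ORF, no culture conditions for WT, no oxygen level, nor any sign that libraries within a group are separate lines or cultures, so p-values measure only the spread between these libraries and an ORF cannot be told apart from other differences between lines.

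Glycolysis splits glucose into pyruvate. Glucose enters through the SLC2A transporters, is trapped as a phosphate by hexokinase, and pyruvate is either passed to mitochondria or reduced to lactate by lactate dehydrogenase and exported by SLC16A3. HIF1A and EPAS1 are made continuously and, when oxygen is present, are hydroxylated by the EGLN enzymes and destroyed, so HIF activity is set largely at the protein and not at the transcript level. Stabilised alpha subunits pair with ARNT and bind hypoxia response elements near many glycolytic genes and near genes such as CA9. In the retina the pigment epithelium lies between the choroidal blood supply and the photoreceptors, and is known for passing glucose on to them.

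The shallowest library (GFP replicate 1) had 12630675 counts and the deepest (WT replicate 3) 17045454, and the 40 genes held 0.887% to 1.46% of all counts, lines without a symbol included. The ORF transcripts followed the labels, since GSTA4 stood at 396 to 431 CPM in its line and at most 22.5 CPM elsewhere, and POU5F1, SOX2 and KLF4 were at least 623 CPM in OSK and at most 2.67 CPM elsewhere. GFP replicate 1 stood apart, with 27349 genes detected against 19488 to 22073 in the other libraries. WT replicate 1 was above the other WT libraries for several of the 40 genes. Of 15 pigment epithelium markers 13 were tested, with PMEL at 85.3 to 391 CPM, while RPE65 (at most 0.64 CPM) and TTR (at most 0.272 CPM) were near 0. Of 13 markers of blood, endothelial, neural, photoreceptor and pluripotent cells 4 were tested (MAP2, TUBB3, NRL and VWF). In bulk RNA, fewer cells of a type and less RNA per cell cannot be told apart.

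The core of the hypoxia response element was searched for in the 250 bases before each RefSeq transcript start (GRCh38.p14), as ACGTG or GCGTG on either strand, which reads CACGT or CACGC when it lies on the other strand. Of the 40 genes 37 had a listed start, and 32 of these held a core before at least 1 start, against 47.4% of all 27305 genes listed. Counted by window, 44 of 70 held a core, against 43.2% of all 35116 windows. Genes with several listed starts have more chances of a match, and a match describes the letters only. Both cores contain the letters CG. The shares over all genes and windows were not limited to expressed genes or matched for base composition. No core lay in the windows of SLC2A1, PKM, PGAM1, P4HA2 and EGLN3. SLC2A3, BNIP3L and NDRG1 had no entry.

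Stretches with a core are shown for the 6 genes with the lowest adjusted p over the 4 groups whose most upstream listed start had a match, to show where the letters lie in the genes that differed most. HK1 was passed over because its match lay before a start inside the gene. All 6 lie on the plus strand and are read 5′ to 3′ along the gene, with the core in capitals. Where more than 30 bases of a window lie in exons of GENCODE 29, only 30 bases around each core are given.
LDHA, chr11:18394366-18394395: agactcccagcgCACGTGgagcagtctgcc
LDHA, chr11:18394470-18394499: gactcaCACGTGggttcccgCACGTccgcc
CA9, chr9:35673897-35673926: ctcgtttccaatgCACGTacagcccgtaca
ENO2, chr12:6914449-6914478: cacccgcgctcgtACGTGcgcctccgccgg
ANKRD37, chr4:185396676-185396705: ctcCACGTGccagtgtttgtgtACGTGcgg
KDM3A, chr2:86441332-86441361: tccgggaggctgtGCGTGtcttgtgagagc
HIF1A, chr14:61695263-61695512: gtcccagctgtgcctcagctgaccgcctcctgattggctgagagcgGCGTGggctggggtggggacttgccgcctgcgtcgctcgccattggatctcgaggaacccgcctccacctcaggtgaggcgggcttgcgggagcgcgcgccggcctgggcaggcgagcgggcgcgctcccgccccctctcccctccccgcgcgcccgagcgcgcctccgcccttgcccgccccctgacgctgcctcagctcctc

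LDHA, the lactate dehydrogenase subunit whose transcript moved most among the enzymes, held 5 matches in 3 separate runs. The palindrome CACGTG counts as a match on each strand, which is why LDHA and ANKRD37 have more matches than runs. ANKRD37 held 3 matches in 2 runs, and CA9, ENO2, KDM3A and HIF1A held 1 match each.

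**Figure D1:**
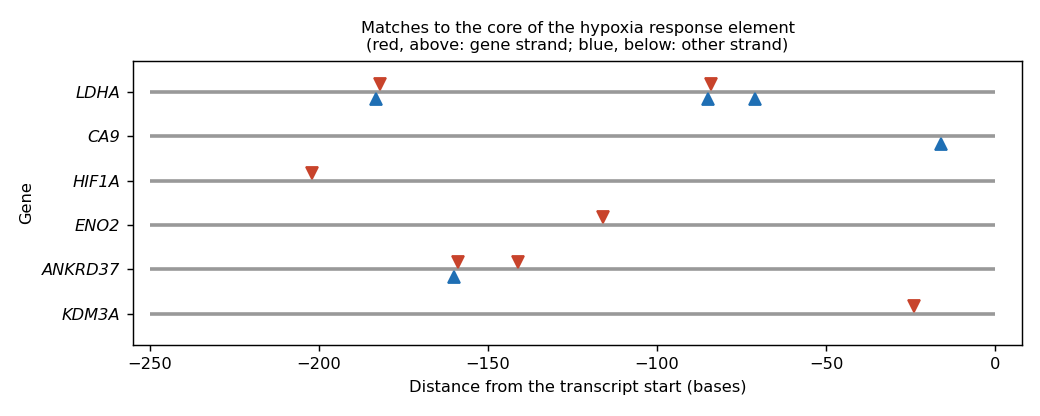
Positions of the core of the hypoxia response element in the 250 bases before the most upstream listed start of 6 genes. The horizontal axis is the distance from the transcript start in bases, each grey line is a window, and triangles above or below it are matches on the gene's strand or the other strand. LDHA has 5 matches and ANKRD37 has 3, and the other 4 genes have 1 each.

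Over the 4 groups, 33 of the 40 genes differed (edgeR quasi-likelihood F test, Benjamini-Hochberg adjusted p under 0.05), against 66.9% of all genes tested. By role these were 14 of 16 enzymes, 5 of 6 transport and flux genes, 12 of 16 other HIF targets and both alpha subunits. The 7 genes that did not pass were ALDOA, ALDOC, PDK1, ERO1A, ANGPTL4, CA12 and EGLN3. By group mean, 19 of the 40 genes were highest in WT and 20 were lowest in GSTA4. OSK held the highest mean of 13 genes and the lowest of 11. These counts include the genes that did not pass. The same counts were not made over all genes, so they do not set the 40 genes apart. By mean, the summed level of the 16 enzymes was largest in WT, at 7902 ± 809 CPM (SD, n = 3), followed by OSK at 7517 ± 482, GSTA4 at 6486 ± 132 and GFP at 6092 ± 431. The WT libraries (7385 to 8835 CPM, with WT replicate 1 the highest) overlapped the OSK libraries (7189 to 8071), so the order of WT and OSK is uncertain. The sums rest mostly on the most abundant enzymes, PKM, ENO1 and GAPDH, with WT means of 1829, 1768 and 1167 CPM. Taken singly by mean, 8 of the 16 enzymes were lowest in GSTA4 and 7 in GFP.

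**Figure D2:**
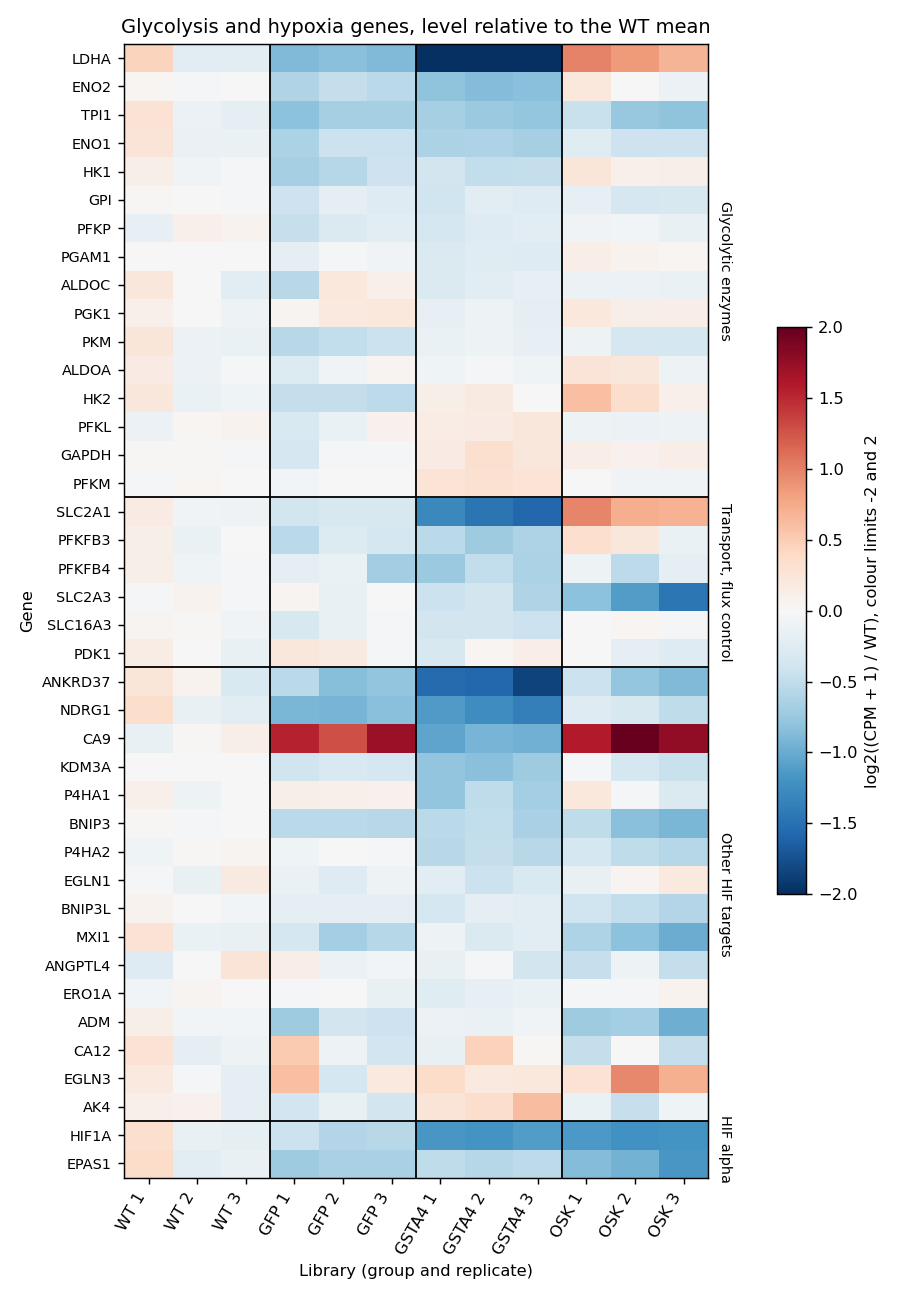
Level of each of the 40 genes in each of the 12 libraries, as the log2 ratio of CPM + 1 to that of the WT mean. Rows are genes grouped by role, columns are libraries, and the colour scale is limited to -2 and 2. LDHA and SLC2A1 are below WT in all 3 GSTA4 libraries and above it in all 3 OSK libraries, while HIF1A is below WT in both lines.

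In GFP cells against WT, 1 of the 40 genes rose and 20 fell, where 11% of all genes tested rose and 11.2% fell. CA9 was the gene that rose. The genes that fell were 9 of 16 enzymes (LDHA, TPI1, HK1, ENO2, HK2, ENO1, PKM, PFKP and GPI), 7 of 16 other HIF targets (NDRG1, ANKRD37, MXI1, BNIP3, ADM, KDM3A and BNIP3L), SLC2A1, PFKFB3 and both alpha subunits. The median log2 fold change of the 40 genes was -0.30, against 0.0098 over all genes. The 3 libraries of each group did not overlap for 23 of the 40 genes, against 34.6% of all genes. Without WT replicate 1, the log2 change moved from -0.91 to -0.65 (edgeR adjusted p = 2.27e-08) for LDHA and from -0.74 to -0.58 (adjusted p = 1.83e-06) for TPI1. Others shrank as well, among them HIF1A (-0.54 to -0.37), EPAS1 (-0.69 to -0.49) and NDRG1 (-0.92 to -0.72). The changes of -0.41 for PFKP and -0.36 for KDM3A were slightly larger falls than with that library. BNIP3L did not pass without it (adjusted p = 0.0957) and failed in 6 of 19 alternative settings.

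In GSTA4 cells against the GFP control, 8 of the 40 genes rose and 14 fell, where 14.7% of all genes rose and 14.6% fell. The enzymes divided into 5 that rose (HK2, GAPDH, PKM, PFKM and PFKL) and 4 that fell (LDHA, PGK1, ENO2 and PGAM1, the last of which did not pass in 6 of 19 alternative settings). Their median log2 change was 0.011. Of the other HIF targets, 3 rose (AK4, ADM and MXI1) and 6 fell (CA9, ANKRD37, P4HA1, P4HA2, KDM3A and NDRG1), with a median of -0.14. MXI1 did not pass in 6 of 19 alternative settings, NDRG1 in 3 and ADM in 1. SLC2A1, SLC2A3 and SLC16A3, which carry glucose in and lactate out, all fell, although SLC16A3 did not pass in 2 of 19 alternative settings. Libraries did not overlap for 23 of 40 genes, against 42.3% of all genes.

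In OSK cells against GFP, 13 of the 40 genes rose and 6 fell, where 23.1% of all genes rose and 22.8% fell. The 13 were 8 enzymes (LDHA, HK2, HK1, ENO2, PKM, GAPDH, PFKP and PGAM1), SLC2A1, PFKFB3 and SLC16A3, and, among the other HIF targets, NDRG1 and CA9. No enzyme fell (8 passed no threshold), and the enzymes' median log2 change was 0.20, against -0.044 for the other HIF targets and -0.019 for all genes. The genes that fell were SLC2A3, BNIP3L, P4HA2, ADM, HIF1A and EPAS1. Of these, ADM did not pass in 5 of 19 alternative settings and EPAS1 in 4. Libraries did not overlap for 18 of 40 genes, against 54.7% of all genes. With library size alone as the scaling, 9 genes rose and 9 fell, and the share of higher calls among all calls moved from 50.4% to 39.8%. Without GFP replicate 1, 9 genes rose, and GAPDH (log2 0.14, adjusted p = 0.0522), SLC16A3 (0.095, adjusted p = 0.212), CA9 (adjusted p = 0.0763), PFKP (adjusted p = 0.0887) and PKM (adjusted p = 0.0872) no longer passed. SLC16A3 failed in 11 of 19 alternative settings.

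The last 2 comparisons share the GFP libraries as their control. The direct contrast of OSK with GSTA4, in which the GFP libraries enter only through the spread estimated over all 12 libraries, called 17 of the 40 genes higher in OSK and 8 lower. Among all genes 24.1% were higher and 23.8% lower. The enzymes split 7 higher (LDHA, ENO2, HK1, PGAM1, PGK1, ENO1 and PFKP) and 2 lower (PFKM and PFKL). Of the other HIF targets, 7 were higher (CA9, ANKRD37, NDRG1, P4HA1, KDM3A, EGLN1 and ERO1A) and 4 lower (ADM, AK4, MXI1 and BNIP3L). Of the genes called higher, PFKP did not pass in 6 of 19 alternative settings, ERO1A in 5, EGLN1 in 2 and ENO1 in 1. The median log2 difference of the 40 genes was 0.19, against -0.014 over all genes. Libraries did not overlap for 27 of 40 genes, against 58% of all genes.

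Against WT, GSTA4 cells had 3 genes higher (AK4, PFKM and GAPDH) and 24 lower, where 19.7% of all genes were higher and 19% lower. Libraries did not overlap for 30 of 40 genes, against 49% of all genes. OSK cells had 5 genes higher than WT (CA9, LDHA, SLC2A1, EGLN3 and HK2) and 15 lower, where 22.7% of all genes were higher and 22.7% lower. Libraries did not overlap for 22 of 40 genes in that comparison, against 53.5% of all genes. EGLN3 was near the detection limit, between 0.143 and 1.84 CPM, and its call rests on few reads.

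**Figure D3:**
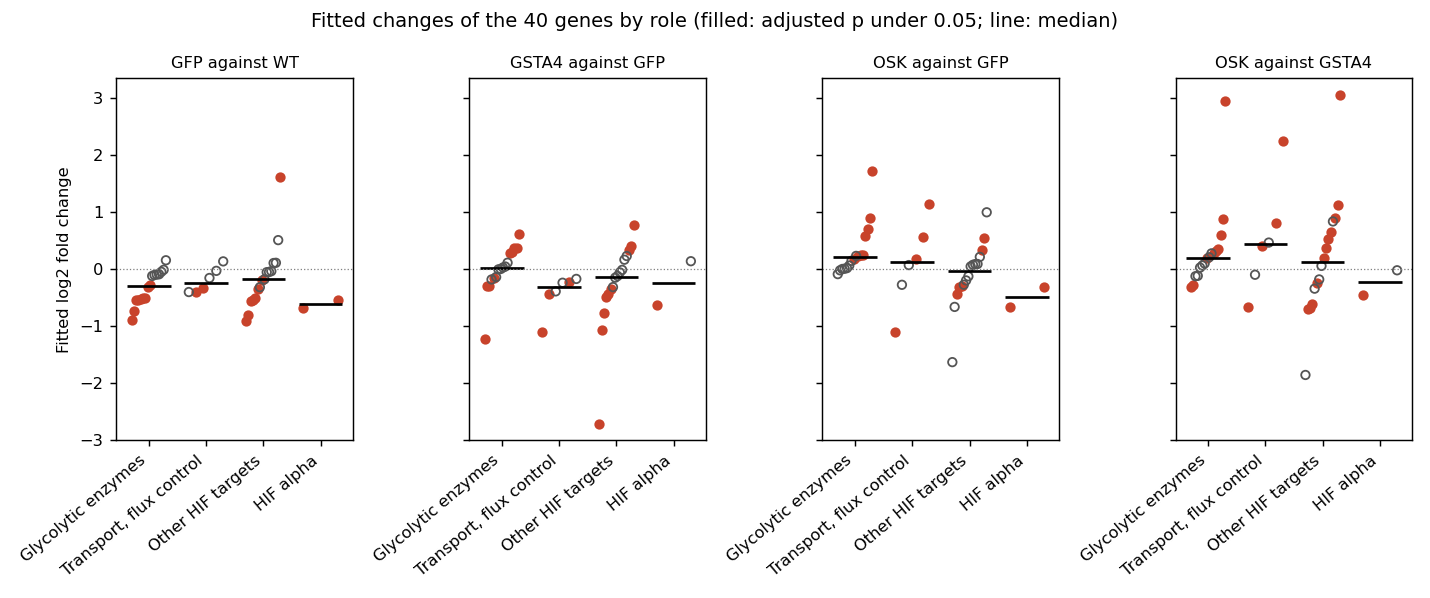
Fitted log2 fold change of each of the 40 genes in 4 comparisons, grouped by role. Filled points passed an adjusted p of 0.05, open points did not, and bars are medians of the role. The enzymes' median is -0.30 for GFP against WT and 0.20 for OSK against GFP, and LDHA, SLC2A1 and CA9 are the highest points in OSK against GSTA4.

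HIF1A and EPAS1 encode the oxygen-regulated subunits. HIF1A was at 798, 576 and 567 CPM in WT, 471, 424 and 437 in GFP, 285, 279 and 293 in GSTA4, and 288, 276 and 278 in OSK. The GSTA4 and OSK libraries interleaved and all lay below every GFP library. HIF1A thus fell by 0.64 ± 0.09 (SE) on the log2 scale in GSTA4 and by 0.66 ± 0.09 in OSK against the GFP libraries they share (edgeR adjusted p = 2.39e-05 and 6.31e-06). The direct difference between OSK and GSTA4 was -0.02 ± 0.09 (adjusted p = 0.849).

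EPAS1, which encodes HIF-2 alpha, stood at 648, 432 and 454 CPM in WT, 307, 320 and 321 in GFP, 353, 338 and 350 in GSTA4, and 277, 260 and 224 in OSK. OSK libraries were the lowest, and the difference from GSTA4 was -0.45 ± 0.11 on the log2 scale (edgeR adjusted p = 0.00153). The fall against GFP of -0.32 ± 0.11 (adjusted p = 0.0201) did not pass in 4 of 19 alternative settings. The EPAS1 to HIF1A ratio of CPM was 1.21 ± 0.0215 (SD, n = 3) in GSTA4, above 0.713 ± 0.0548 in GFP and 0.902 ± 0.085 in OSK, with no overlap between GSTA4 and the other libraries.

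**Figure D4:**
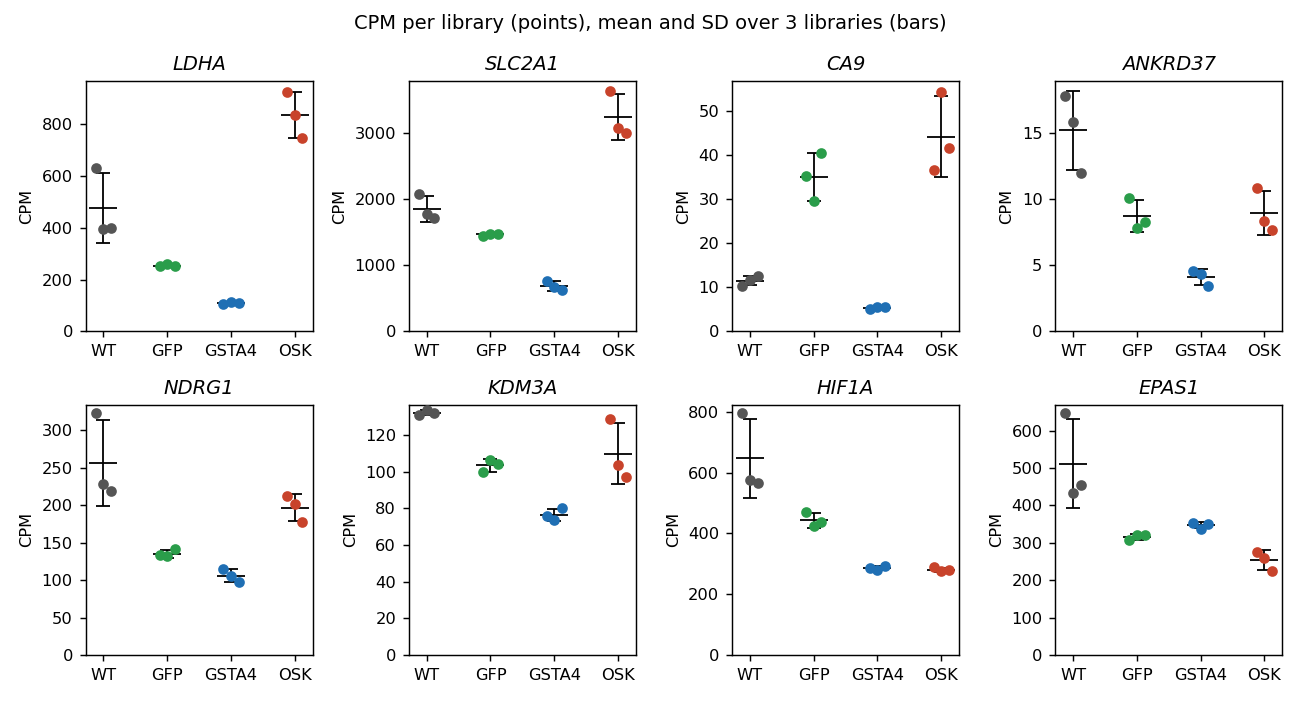
CPM of 8 genes by group, with a point for each library and bars for the mean and SD over 3 libraries. Each vertical axis starts at 0 and has its own scale. LDHA runs from 104 CPM in GSTA4 to 927 in OSK, while HIF1A lies between 276 and 293 in both lines.

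SLC2A1, the GLUT1 glucose transporter, was at 2074, 1768 and 1716 CPM in WT, 1438, 1475 and 1477 in GFP, 758, 670 and 619 in GSTA4, and 3632, 3066 and 3000 in OSK. No 2 groups overlapped. It was 2.21-fold higher in OSK than in GFP (log2 1.14 ± 0.09 SE, edgeR adjusted p = 8.22e-10) and fell by 1.10 ± 0.09 on the log2 scale in GSTA4 (adjusted p = 3.94e-09). Between OSK and GSTA4 the fold was 4.74 (log2 2.24 ± 0.09, adjusted p = 1.96e-14). Per kilobase of exon, SLC2A1 had a level of 684 CPM in OSK, above the 423 of GAPDH, whereas in GSTA4 it had 144 against 463. The lengths used were all annotated exons merged, 4.72 kb for SLC2A1 and 2.98 kb for GAPDH. They may differ from those of the transcripts expressed, and the order of the genes depends on them.

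SLC2A3, the high-affinity transporter GLUT3, went the other way in OSK. It was at 39.8, 34.3 and 38 CPM in GFP, 28.3, 29.3 and 24.9 in GSTA4, and 21.3, 17.2 and 13.5 in OSK, with WT at 37.5 to 40.1. OSK libraries lay below all others, and the log2 change against GFP was -1.11 ± 0.12 (edgeR adjusted p = 1.68e-07). The SLC2A3 to SLC2A1 ratio was 0.00532 ± 0.000719 (SD, n = 3) in OSK, 0.0256 ± 0.00223 in GFP and 0.0405 ± 0.00326 in GSTA4.

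Among the genes that control flux, PFKFB3, which makes the activator of phosphofructokinase, was at 28.7, 34.8 and 33.2 CPM in GFP and 53.6, 50.01 and 38.8 in OSK. Its log2 change was 0.56 ± 0.11 in OSK against GFP (edgeR adjusted p = 0.000276) and -0.24 ± 0.11 in GSTA4 (adjusted p = 0.114). PFKFB3 in WT was at 46.3, 38.5 and 42.8 CPM, and OSK against WT was not called (log2 0.16, adjusted p = 0.248). PFKFB4, of the same family, was at 2.35 to 5.1 CPM in all libraries and was called only in GSTA4 against WT. PDK1, the kinase that shuts pyruvate dehydrogenase, ranged from 13.4 to 19.9 CPM and passed no comparison. SLC16A3, the lactate exporter MCT4, was 651 to 705 CPM in WT, 545 to 672 in GFP, 505 to 530 in GSTA4 and 672 to 704 in OSK. Its log2 change in OSK against GSTA4 was 0.40 ± 0.07 (adjusted p = 4.44e-05).

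At the first enzyme step, HK1 was at 170, 182 and 204 CPM in GFP, 210.1, 194 and 195 in GSTA4, and 323, 291 and 295 in OSK. OSK libraries were above both and the GFP and GSTA4 libraries overlapped. HK1 rose in OSK by a log2 0.71 ± 0.07 against GFP (edgeR adjusted p = 6.35e-08). WT was at 294, 259 and 263 CPM and overlapped OSK, and OSK against WT was not called (log2 0.15, adjusted p = 0.0809). HK2, the inducible hexokinase, was at 33.8, 26.3 and 27 CPM in WT and 20.4, 20.6 and 19.7 in GFP. It was at 31.5, 32.8 and 29 CPM in GSTA4, and 44.5, 37 and 31.2 in OSK. Against WT, HK2 was called higher in OSK (log2 0.37, adjusted p = 0.0121) and was not called in GSTA4 (0.096, adjusted p = 0.548). It rose in GSTA4 (log2 0.62 ± 0.12, adjusted p = 0.000517) and in OSK (0.89 ± 0.12, adjusted p = 3.13e-06) against the same GFP libraries, while OSK against GSTA4 missed the threshold (0.27 ± 0.11, adjusted p = 0.0563). That difference passed in some of the 19 alternative settings, such as a replicate block (adjusted p = 0.025) and the fit of only the 6 libraries compared (adjusted p = 0.0235). Counting the main run, it failed in 14 runs, with adjusted p up to 0.316.

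The 3 phosphofructokinase genes divided, since PFKM (log2 0.30 ± 0.05) and PFKL (0.29 ± 0.08) rose in GSTA4 against GFP, while PFKP rose in OSK (0.23 ± 0.07, edgeR adjusted p = 0.015). GAPDH, often used as a reference gene, rose by a log2 0.37 ± 0.07 in GSTA4 (adjusted p = 0.000661). PGK1, which makes the first ATP of the pathway, fell by 0.31 ± 0.06 in GSTA4 (adjusted p = 0.000958) and had a log2 change of 0.00 ± 0.06 in OSK. TPI1 and GPI, which interconvert sugar phosphates, passed no comparison among the 3 ORF lines and were lower in all of them than in WT, by 0.74, 0.74 and 0.68 on the log2 scale for TPI1. ALDOA had 53.5% of its exonic bases under another annotated gene, so its low level of 41.4 to 59.9 CPM is uncertain.

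At the lower steps, ENO1, the main enolase, had log2 changes of -0.14 ± 0.09 in GSTA4 and 0.14 ± 0.09 in OSK against GFP, neither past the threshold, and PGAM1, phosphoglycerate mutase, had -0.16 ± 0.06 and 0.18 ± 0.06. ENO2, the enolase best known from neurons, was at 225, 213 and 216 CPM in WT, 144, 156 and 149 in GFP, 125, 119 and 121 in GSTA4, and 252, 217 and 201 in OSK. The GFP and GSTA4 libraries did not overlap each other or the other groups, while WT and OSK interleaved. The log2 change was -0.30 ± 0.07 in GSTA4 (edgeR adjusted p = 0.00293) and 0.58 ± 0.07 in OSK (adjusted p = 7.88e-07). PKM, pyruvate kinase, was at 1232 to 1343 CPM in GFP and 1620 to 1683 in GSTA4, a log2 rise of 0.36 ± 0.09 (adjusted p = 0.00334). Its rise of 0.24 ± 0.09 in OSK (adjusted p = 0.0288) was lost in 4 of 19 alternative settings. In WT, PKM was at 1656 to 2151 CPM. GSTA4 was not called against WT (log2 -0.14, adjusted p = 0.201) and OSK was called lower (-0.27, adjusted p = 0.0159).

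LDHA, which reduces pyruvate to lactate, was at 632, 397 and 398 CPM in WT, 251, 259 and 252 in GFP, 104, 111 and 109 in GSTA4, and 927, 835 and 748 in OSK. No groups overlapped. It fell by 1.23 ± 0.13 (SE) on the log2 scale in GSTA4 against GFP (edgeR adjusted p = 2.38e-07), and it was 3.29-fold higher in OSK than in GFP (log2 1.72 ± 0.12, adjusted p = 4.66e-10). Between OSK and GSTA4 the fold was 7.73 (log2 2.95 ± 0.13, adjusted p = 1.46e-13).

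LDHB, the subunit that favours lactate oxidation, stayed at 12.5 to 19.9 CPM in the 12 libraries. It rose in GSTA4 against GFP by a log2 0.34 ± 0.11 (edgeR adjusted p = 0.0221) and was lower in OSK than in GSTA4 (-0.48 ± 0.11, adjusted p = 0.00108). The LDHA to LDHB ratio of CPM was highest in OSK, at 60.9 ± 9.75 (SD, n = 3), followed by WT at 34.2 ± 7.72, GFP at 16.7 ± 0.689 and GSTA4 at 5.62 ± 0.102. Another annotated gene covers 33.4% of the exonic bases of LDHB, which may affect its level.

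**Figure D5:**
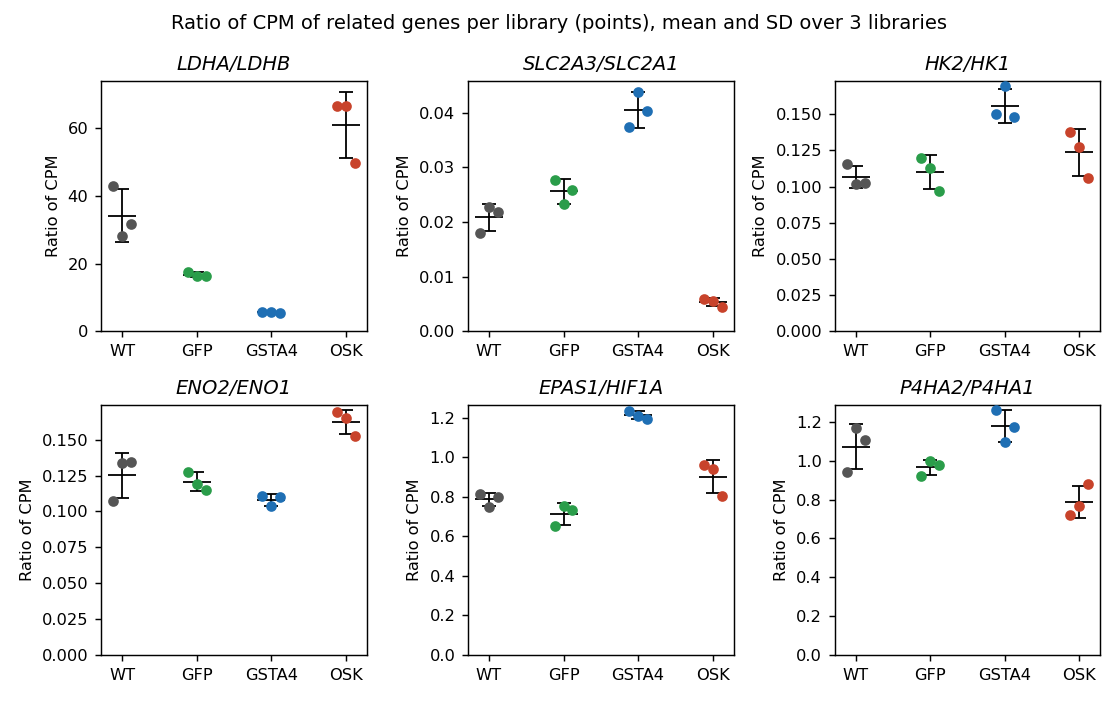
Ratio of CPM of 6 pairs of related genes by group, with a point for each library and bars for the mean and SD over 3 libraries. Each vertical axis starts at 0. The LDHA to LDHB ratio runs from 5.62 in GSTA4 to 60.9 in OSK, and the SLC2A3 to SLC2A1 ratio is lowest in OSK, at 0.00532.

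CA9, a membrane carbonic anhydrase often used as a marker of hypoxia, was at 10.3, 11.7 and 12.6 CPM in WT, 35.3, 29.5 and 40.4 in GFP, 5.02, 5.55 and 5.44 in GSTA4, and 36.6, 54.4 and 41.7 in OSK. The GFP and OSK libraries overlapped and lay above WT, and GSTA4 lay below WT. The change in GFP against WT was a log2 1.61 ± 0.14 (edgeR adjusted p = 1.37e-07), and 1.6 without GFP replicate 1. In GSTA4 against GFP it was -2.72 ± 0.16 (adjusted p = 4.14e-11). The rise in OSK against GFP of 0.34 ± 0.13 (adjusted p = 0.0356) was 0.16 (adjusted p = 0.317) without OSK replicate 2. ARHGEF39 overlaps 38.5% of the exonic bases of CA9 on the other strand, and had means of 1.51, 3.09, 2.06 and 4.77 CPM in WT, GFP, GSTA4 and OSK. Its part in the CA9 values was not tested.

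ANKRD37, an ankyrin-repeat protein, was at 17.8, 15.8 and 11.9 CPM in WT, 10.04, 7.81 and 8.22 in GFP, 4.51, 4.35 and 3.44 in GSTA4, and 10.8, 8.36 and 7.67 in OSK. GFP and OSK overlapped, and GSTA4 lay below all others. Its log2 change in GSTA4 against GFP was -1.08 ± 0.20 (edgeR adjusted p = 0.00026), and in OSK 0.04 ± 0.18 (adjusted p = 0.868). UFSP2 overlaps 35.2% of its exonic bases on the other strand, and had means of 12.2, 15, 18.5 and 12.1 CPM in WT, GFP, GSTA4 and OSK. UFSP2 was not called in GSTA4 against GFP (adjusted p = 0.0658). The part of UFSP2 in the ANKRD37 values was not tested.

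NDRG1, a stress-responsive gene, was at 133, 132 and 141 CPM in GFP, 115, 106 and 96.8 in GSTA4, and 212, 202 and 177 in OSK. The 3 groups did not overlap. NDRG1 rose in OSK against GFP by a log2 0.54 ± 0.11 (edgeR adjusted p = 0.000369). In WT it was at 323, 228 and 219 CPM, and OSK was lower than WT (log2 -0.38, adjusted p = 0.00605). KDM3A, a histone H3 lysine 9 demethylase, fell in GSTA4 by 0.44 ± 0.08 on the log2 scale (adjusted p = 0.000327) and differed by 0.09 ± 0.08 in OSK (adjusted p = 0.404).

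The collagen prolyl hydroxylases P4HA1 and P4HA2 parted in OSK. P4HA1 was at 76, 74.8 and 73.9 CPM in GFP, 40, 48.6 and 42.9 in GSTA4, and 81, 67.6 and 56.7 in OSK. P4HA2 was at 70.1, 74.6 and 72.3 CPM in GFP, 50.4, 53.3 and 50.5 in GSTA4, and 58.3, 51.7 and 49.8 in OSK. Both fell in GSTA4, by 0.77 ± 0.10 and 0.49 ± 0.07 on the log2 scale (edgeR adjusted p = 5.96e-06 and 2.2e-05). In OSK P4HA2 fell by 0.44 ± 0.07 (adjusted p = 3.51e-05), whereas P4HA1 had -0.13 ± 0.10 (adjusted p = 0.296).

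Some HIF targets were higher in GSTA4 than in OSK. AK4, a mitochondrial adenylate kinase, was at 11.3, 13.3 and 11.4 CPM in GFP, 18.2, 19.4 and 23.5 in GSTA4, and 13.6, 10.6 and 14.1 in OSK, with GSTA4 above every library of the other ORF lines. Its log2 rise in GSTA4 against GFP was 0.76 ± 0.14 (edgeR adjusted p = 0.00026). ADM, the vasodilator peptide adrenomedullin, rose by 0.40 ± 0.11 (adjusted p = 0.0115), and MXI1, a MYC antagonist, by 0.34 ± 0.12 (adjusted p = 0.0324, lost in 6 of 19 alternative settings). Against WT, neither ADM (log2 -0.12, adjusted p = 0.425) nor MXI1 (-0.22, adjusted p = 0.135) was called in GSTA4.

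BNIP3 and BNIP3L are mitophagy receptors. BNIP3 was at 59.3 to 61.4 CPM in WT, 40.4 to 41.2 in GFP, 38.05 to 42.4 in GSTA4 and 31.6 to 41.9 in OSK, so all 3 ORF lines lay below WT, with log2 changes of -0.55, -0.57 and -0.76. BNIP3L fell in OSK against GFP by 0.31 ± 0.06 on the log2 scale (edgeR adjusted p = 0.000359). Of the oxygen-sensing hydroxylases, EGLN1 was at 15.2 to 23.7 CPM in the 12 libraries and passed neither comparison with GFP. ERO1A, an oxidase of disulfide formation, stayed between 38.6 and 48.5 CPM.

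The lists that follow are read against the shares of all genes given above, 14.7% higher and 14.6% lower in GSTA4 against GFP and 23.1% and 22.8% in OSK against GFP. In a wider list of 26 tested HIF targets, 4 rose and 9 fell in GSTA4 against GFP, and 9 rose and 8 fell in OSK, with median log2 changes of -0.10 and 0.095. LOX, a collagen cross-linking enzyme, was at 114, 127 and 131 CPM in GFP, 28.8, 32.6 and 34.1 in GSTA4, and 355, 393 and 493 in OSK. BHLHE40, a transcriptional repressor, was at 110.2, 111 and 114 CPM in GFP, 35.4, 34.5 and 32.4 in GSTA4, and 293, 238 and 239 in OSK. Both were low in every GSTA4 library and high in every OSK library, with log2 changes of -1.96 ± 0.14 and -1.71 ± 0.10 in GSTA4 and 1.74 ± 0.13 and 1.20 ± 0.09 in OSK (edgeR adjusted p of 8.94e-10 or lower). VEGFA, the vascular growth factor, fell in both lines, by 1.10 ± 0.09 and 0.30 ± 0.09 on the log2 scale (adjusted p = 6.01e-09 and 0.00679).

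Of 12 tested HIF pathway components, 2 rose and 1 fell in GSTA4 against GFP, and 5 rose and 2 fell in OSK, small counts of which the 2 in GSTA4 and the 2 that fell in OSK are near or below the shares of all genes. ARNT, the common partner of the alpha subunits, rose in OSK by a log2 0.51 ± 0.07 (edgeR adjusted p = 3.19e-06), and its paralog ARNT2 fell by 0.95 ± 0.08 (adjusted p = 2.53e-09). Of 19 other glycolytic genes, 4 rose and 1 fell in GSTA4 and 8 rose and 3 fell in OSK, including SLC16A1, the monocarboxylate transporter MCT1, at 0.65 ± 0.06 on the log2 scale in OSK.

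Of the 15 genes of pyruvate dehydrogenase and mitochondrial entry, 0 rose and 2 fell in GSTA4 and 4 rose and 1 fell in OSK. PC, pyruvate carboxylase, rose in OSK by a log2 1.72 ± 0.18 (edgeR adjusted p = 7.98e-08). Of 8 pentose phosphate genes, 0 rose and 1 fell in GSTA4 and 2 rose and 2 fell in OSK, close to the shares of all genes. Of 11 gluconeogenesis and glycogen genes, 5 rose and 2 fell in GSTA4 and 7 rose and 2 fell in OSK. PYGB, brain-type glycogen phosphorylase, was at 141 to 155 CPM in GFP and 517 to 599 in OSK (log2 1.91 ± 0.07, adjusted p = 7.83e-15).

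Other gene groups differed among the lines as well. The summed level of 16 cell-cycle genes was 160 to 184 CPM in WT, 365 to 383 in GFP, 295 to 309.8 in GSTA4 and 682 to 796 in OSK. Among the 3 ORF lines it was highest in OSK and lowest in GSTA4, as were LDHA, SLC2A1, CA9, ENO2 and NDRG1, whereas WT had the lowest sum of all. Other members, among them AK4, ADM, MXI1, PFKM and PFKL, were instead highest in GSTA4 among these lines. Of these 16 genes, 15 rose in GFP against WT, 7 fell in GSTA4 against GFP and 15 rose in OSK against GFP. The summed level of the 15 pigment epithelium markers was 2422 to 2663 CPM in WT, 2193 to 2527 in GFP, 1578 to 1651 in GSTA4 and 1403 to 1471 in OSK. Of the 13 tested, 9 rose and 2 fell in GFP against WT, 1 rose and 8 fell in GSTA4 against GFP, and 1 rose and 11 fell in OSK against GFP. The part of cell-cycle and pigment epithelium genes in the results above was not tested.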

How the data were processed

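Poly(A) RNA was measured in 12 ARPE-19 libraries. The authors deposited raw read counts per gene; STAR 2.7.1a, featureCounts 1.6.2 and the builds GRCh38, hg38, GRCm38 and mm10 are named in the submitters' processing notes, with no role given. The annotation release and the strand setting are not given in the sources used here, so overlapping genes may share or lose reads. Lines without a symbol (20014 of 60605, 0.485% to 0.822% of counts) were left out. TMM-scaled counts that passed filterByExpr went into the quasi-likelihood test of edgeR 4.0.16 (limma 3.58.1, R 4.3.3), with all 12 libraries in a single fit, 8 residual degrees of freedom, a mean per group and two-sided Benjamini-Hochberg adjusted p over 15179 genes per comparison (threshold 0.05). CPM are TMM-scaled. SE is the log2 fold change over the root of F. A count of 0 allows up to 3 reads, or 0.177 to 0.228 CPM, by counting error only.

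On simulated counts (GSTA4 against GFP, 14824 genes) the test recovered 47%, 85.1% and 98.5% of genes changed by a log2 of 0.5, 1 and 2. Each size of change was given to 66 or 67 genes, all genes had the same spread, and no library was made to stand apart. These settings are simpler than the data, so the shares may not hold for the real counts. The alternatives tried were DESeq2 1.42.0, a replicate block, scaling by RLE or by library size alone, dropping the filter or requiring a mean of 1 CPM, leaving out each library, and fitting only the 6 libraries compared. Promoter windows came from RefSeq (GRCh38.p14), exon lengths and overlaps from GENCODE 29. All 40 genes are reported by role. Genes outside the 40 are named from lists, up to 3 per list and comparison by lowest adjusted p, plus partners in ratios. The restriction of printed windows to the most upstream start was chosen after their sequences had been seen. The members and lists were chosen with earlier results of these data known.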

Additional observations from a re-analysis of the deposited data

How the results depend on the processing

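Of 240 pairs of a gene and a comparison, 134 were called, 107 of these were kept in every alternative run and 27 were lost in at least 1, and no called change reversed. RLE scaling kept 134 of the 134, DESeq2 129 and library size alone 127. A replicate block also kept 134, and the counts higher and lower with the replicate block were 1 and 20 in GFP against WT, 8 and 14 in GSTA4 against GFP, 13 and 8 in OSK against GFP, 18 and 8 in OSK against GSTA4, 4 and 26 in GSTA4 against WT, and 6 and 15 in OSK against WT, with 33 genes in the F test. The block added 7 calls, among them HK2 in OSK against GSTA4 and MXI1 in OSK against GFP. Same-numbered libraries correlated by -0.0193 to 0.153 (mean 0.0368) in their deviations from group means. Differently numbered libraries correlated by -0.0982 to 0.077 (mean -0.0183). The highest values were those of WT replicate 1 with replicate 1 of GFP, GSTA4 and OSK (0.153, 0.12 and 0.106). Whether the numbers pair the libraries cannot be told from these values.

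With each library left out in turn, the counts of genes higher and lower ranged from 1 to 2 and from 18 to 21 in GFP against WT, from 6 to 8 and from 11 to 15 in GSTA4 against GFP, from 9 to 15 and from 4 to 9 in OSK against GFP, from 14 to 18 and from 8 to 9 in OSK against GSTA4, from 2 to 4 and from 23 to 26 in GSTA4 against WT, and from 3 to 7 and from 13 to 15 in OSK against WT, and from 30 to 35 in the F test. The count higher in GFP against WT was 2 without WT replicate 1 or GFP replicate 1, and that in OSK against WT was 3 without WT replicate 2 or 3. Without WT replicate 1, the log2 change in OSK against WT was -0.22 for ENO1, -0.13 for PKM (adjusted p = 0.11) and -0.18 for NDRG1, and that of EPAS1 in GSTA4 against WT was -0.35. Without OSK replicate 1, HK2 in OSK against WT was 0.24 (adjusted p = 0.105). The causes were not tested. At this depth the 3 genes near the detection limit, CA12, EGLN3 and ANGPTL4, allow only large changes to be seen.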

Other observations

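PPP1R3C, a glycogen-targeting subunit of protein phosphatase 1, was at 1 to 2.51 CPM in GFP and 17.1 to 19 in OSK, a log2 rise of 3.46 (edgeR adjusted p = 4.5e-10). PCK2, mitochondrial phosphoenolpyruvate carboxykinase, was at 7 to 8.53 CPM in GFP and 21.9 to 27.9 in OSK, a log2 rise of 1.66 ± 0.13 (SE, adjusted p = 2.34e-09). In GSTA4 against GFP, GYS1, glycogen synthase, rose by a log2 0.47 and GYG1, glycogenin, by 0.56, while PPP1R3B fell by 1.35 on the log2 scale (adjusted p = 6.2e-05, 6.4e-05 and 2.5e-08). SLC2A12, a sugar transporter, was at 18.9 to 24.3 CPM in GFP, 6.8 to 10.5 in GSTA4, 11.9 to 12.98 in OSK and 8.4 to 13.3 in WT.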
